A study of Mus musculus with 2 samples.

Results

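Candidate marginal zone B cells were examined in the spleens of mice infected with LCMV-cl13, a lymphocytic choriomeningitis virus that sets up a lasting infection. Members were droplet barcodes chosen by raw counts of unique molecular identifiers (UMIs), each UMI standing for 1 captured transcript. A member had at least 1 UMI of *Cd79a*, at least 2 UMIs of *Cr2*, *Dtx1* and *Il9r* together, fewer than 3 of *Ifit1*, *Ifit2* and *Ifit3* together, fewer than 5 of *Mzb1*, and none of *Rgs13*, *Cd3e* or *Lyz2*. This gate held 1048 of 13883 *Cd79a* barcodes and of 23397 barcodes in all. Of these, 874 came from PEP-WT and 174 from PEP-619WW.

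Per the series' design text and the study's methods, both groups were C57BL/6 mice infected with LCMV-cl13 and taken at 8 dpi. PEP-WT mice carried the wild type *Ptpn22* gene. PEP-619WW mice carried a CRISPR-made *Ptpn22* allele, the murine counterpart of the human variant linked to autoimmunity. *Ptpn22* encodes the phosphatase PEP, which restrains antigen receptor signaling in lymphocytes. Splenocytes of 4 to 5 age and sex matched mice were pooled per genotype, sorted as live CD45+ cells and sequenced by the 10x Genomics 3' assay. The sample labels also name liver, the Jurkat cell line and cells from tumors, while the extraction protocol, the design text and the study's methods describe splenocytes. Each genotype is therefore 1 library of pooled mice. No replicate error exists, no test between genotypes was possible, and every interval below is a 95% interval that covers counting error only.

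Marginal zone B cells sit at the border of the white pulp, where blood enters the spleen, and make early IgM responses to blood-borne antigens. Their development needs signals through the Notch2 receptor. They are known for high levels of complement receptor 2 (*Cr2*, CD21) and CD1d, and for low CD23 (*Fcer2a*), while sphingosine phosphate receptors hold them at the sinus. *Dtx1* encodes Deltex1, a target and regulator of Notch signaling. *Il9r* encodes the interleukin 9 receptor, and *Cd79a* a signaling chain of the B cell receptor. In the mouse genome build GRCm38, *Cr2* lies at chr1:195136811-195176716, *Dtx1* at chr5:120680202-120711927, *Il9r* at chr11:32187541-32200279 and *Ptpn22* at chr3:103859795-103912247.

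The run analysed held 14821 PEP-WT barcodes with 77916082 UMIs and 8576 PEP-619WW barcodes with 56745578 UMIs. Median depths were 2832 UMIs and 3293 UMIs. The libraries shared 39 barcode sequences, none of them between the gates. *Cd79a* barcodes made up 60.7% of the PEP-WT library and 56.9% of the PEP-619WW library. Of these, 5045 and 2193 passed the exclusions of the rule, and a UMI of *Cd79a* alone does not mark a barcode as a B cell. A second run was deposited for each genotype, with 9539 PEP-WT and 11029 PEP-619WW barcodes, and how the runs relate is not stated in the sources used here. It held 10 *Cd79a* barcodes from PEP-WT and 795 from PEP-619WW, of which 0 and 29 met the rule. The cell numbers given in the study's methods are those of the second run and not of the run analysed, which was used because the rule names it and because it holds the B cells. Whether the account of mice, time and sort applies equally to both runs is therefore not known.

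The share of gate barcodes was lower in PEP-619WW than in PEP-WT. In PEP-WT, 874 of 9001 *Cd79a* barcodes met the rule, or 9.71% (9.11 to 10.3, Clopper-Pearson). In PEP-619WW, 174 of 4882 did, or 3.56% (3.06 to 4.12). The difference was -6.15 percentage points (-6.94 to -5.33, Newcombe), a share 2.72 times as high in PEP-WT. Among all barcodes of the library the shares were 5.90% and 2.03%, a difference of -3.87 percentage points (-4.35 to -3.38).

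The lower share held under every way of counting that was tried within this run, but its size did not. Gate barcodes were deep, at 3176.5 UMIs (median) for PEP-WT and 3839.5 for PEP-619WW. Other *Cd79a* barcodes that passed the same exclusions had medians of 2115 and 2697 UMIs. When each barcode was thinned to 1000 UMIs, 4.59% of 6923 PEP-WT and 0.828% of 3260 PEP-619WW *Cd79a* barcodes met the rule, shares that differed 5.55-fold. When *Cr2* was left out and 1 UMI of *Dtx1* or *Il9r* sufficed, the shares were 10.6% and 6.29%, which differed 1.68-fold. A score of at least 3 UMIs gave 5.19% and 1.35%.

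**Figure D1:**
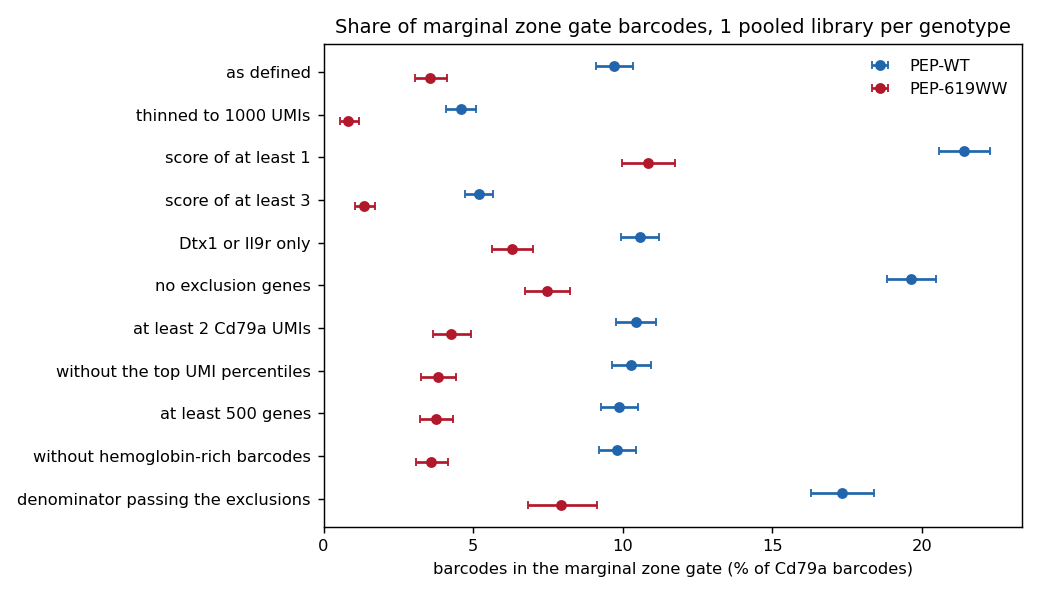
Share of *Cd79a* barcodes that met the marginal zone rule (x axis, percent) under each way of counting (y axis), with points for the share in 1 pooled library per genotype and bars for the 95% binomial interval. The PEP-WT share lies above the PEP-619WW share in each row, 9.71% against 3.56% as defined and 4.59% against 0.828% at 1000 UMIs.

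The exclusions kept similar parts of both libraries, although the *Ifit* limit removed more of PEP-WT. Before them, 1769 PEP-WT and 364 PEP-619WW *Cd79a* barcodes reached the score, and 49.4% and 47.8% were kept. At least 5 UMIs of *Mzb1*, a chaperone of antibody secreting cells that marginal zone B cells also make, removed 30.1% and 33.5%. A UMI of the myeloid gene *Lyz2* removed 21.4% and 21.98%, and the *Ifit* limit removed 14.3% and 7.97%. Without any exclusion the shares were 19.7% and 7.46%.

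Free RNA in the droplets can add UMIs to cells that do not make a gene. Score gene UMIs were therefore read in T cell-like barcodes, those with at least 2 UMIs of *Cd3e*. There were 1304 in PEP-WT and 982 in PEP-619WW. At full depth, with medians of 6392 and 8585 UMIs, 8.51% and 5.09% of them had 2 UMIs of the 3 score genes. These barcodes were not put through the exclusions, so they are set beside the *Cd79a* shares without exclusions, which were 19.7% (18.8 to 20.5) in PEP-WT and 7.46% (6.73 to 8.23) in PEP-619WW. The T cell-like shares had intervals of 7.05 to 10.2% and 3.80 to 6.66%, both below, although the *Cd79a* barcodes were shallower. At 1000 UMIs, where the gate share is after exclusions, the T cell-like share was 0.693% (0.318 to 1.31) in PEP-WT. The gate share there was 4.59% (4.11 to 5.11). In PEP-619WW the T cell-like share was 0.205% (0.0248 to 0.738) against 0.828% (0.546 to 1.20). These intervals overlapped, and the difference was not tested. Among the score genes, *Dtx1* was seen in 18.9% and 13.1% of T cell-like barcodes, *Cr2* in 7.36% and 2.14%, and *Il9r* in 2.38% and 1.02%. At 1000 UMIs *Dtx1* was seen in 4.16% and 2.05% of them, and in 2.98% and 2.06% of other *Cd79a* barcodes. Those other barcodes were chosen at full depth by a score below 2, which limits their *Dtx1*. The T cell-like barcodes had no such limit, so the shares of *Dtx1* in the 2 sets cannot be compared. A UMI of *Cd79a* was seen in 26.0% and 25.6% of T cell-like barcodes at full depth. Free RNA, mixed droplets and transcripts of the T cells themselves were not told apart, so these shares do not measure free RNA alone.

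The gate was of mixed strength in both libraries. In PEP-WT, 407 members had a score of exactly 2 UMIs, 197 had 3 and 270 had 4 or more. In PEP-619WW the numbers were 108, 31 and 35. Just outside the limit, with a score of 1, lay 1054 PEP-WT and 355 PEP-619WW barcodes, with a median of 2365.5 and 3062 UMIs. Those just inside, at 2, had medians of 2725 and 3452. Members that entered through *Cr2* alone made up 38.6% of the PEP-WT gate and 26.4% of the PEP-619WW gate, and the others held a UMI of *Dtx1* or *Il9r*. Follicular B cells also make *Cr2*, so members with *Cr2* alone need not be marginal zone B cells.

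The genes of the rule are given as a description, since they chose the members. *Cr2* stood at 660 UMIs per 1000000 (CPM) in the PEP-WT gate and 351 in the PEP-619WW gate. *Dtx1* stood at 213 and 223 CPM, and *Il9r* at 72.4 and 62.9 CPM. *Cd79a* was at 2292 and 2234 CPM.

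Totals over all *Cd79a* barcodes that passed the exclusions, in or out of the gate, were read next. Those of the 3 score genes include the UMIs that chose the members, so they are a description and lend the lower share no support. *Cr2* had 202 CPM in PEP-WT and 66.8 CPM in PEP-619WW, a log2 ratio of -1.60 (-1.75 to -1.45). *Il9r* had 25.1 and 10.2 CPM, a log2 ratio of -1.30 (-1.69 to -0.91). *Dtx1* had 72.7 and 49.5 CPM, a log2 ratio of -0.55 (-0.74 to -0.37). *S1pr3*, a sphingosine phosphate receptor of marginal zone B cells that the rule did not use, had 70 UMIs in PEP-WT and 7 in PEP-619WW, a log2 ratio of -2.33 (-3.69 to -1.21). *Fcer2a*, the CD23 gene of follicular B cells, was lower as well, at 92.0 against 51.6 CPM and a log2 ratio of -0.83 (-1.01 to -0.66). No other listed marginal zone gene outside the rule differed as much as *S1pr3*. *Cd1d1* had 36.9 and 31.8 CPM (log2 ratio -0.22, -0.46 to 0.02) and *Cd9* had 22.3 and 22.4 CPM. Intervals also included 0 for *Asb2*, *Myof*, *Cd36*, *Tlr3* and *Dusp16*. *Marcks*, *Tm6sf1*, *Fcrl5*, *Plac8* and *Cd38* were lower in PEP-619WW, with log2 ratios from -0.54 to -0.15. *Ighm* was higher in PEP-619WW, at 0.30 (0.28 to 0.32).

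The label was next checked against 14 other marginal zone genes, with the 4171 PEP-WT and 2019 PEP-619WW *Cd79a* barcodes that passed the exclusions but not the score as the comparison. Of these genes, 12 had the 100 UMIs asked for, and 10 were higher in the gate in both libraries. The median log2 ratio was 1.21 in PEP-WT and 0.66 in PEP-619WW, against -0.06 in both over all 8923 genes tested. A gene was called when it differed at least 2-fold in the same direction in both libraries, which 0.123% of all genes did upward and 0.818% downward. By that limit 1 of the 12 was called higher, *Cd36*, a scavenger receptor, at 26.2 against 9.35 CPM in PEP-WT and 26.2 against 8.17 CPM in PEP-619WW.

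Of the 10 genes that also had 100 UMIs in the gates alone, 6 had a smaller gap in PEP-619WW, as did 2059 of all 4355 such genes, and the difference in gap was not tested. *Marcks*, a substrate of protein kinase C at the membrane, had 105 CPM in the gate and 33.2 outside in PEP-WT, and 65.5 and 33.5 in PEP-619WW. Its log2 ratios were 1.66 (1.43 to 1.88) and 0.97 (0.49 to 1.42). *Cd1d1*, which encodes the CD1d molecule that presents lipids, had 67.2 and 27.7 CPM in PEP-WT, and 51.1 and 29.3 in PEP-619WW, with log2 ratios of 1.28 and 0.80. *Fcrl5*, an Fc receptor-like gene, had log2 ratios of 1.44 and 0.84, and *Myof*, which encodes a membrane repair protein, 1.44 and 0.30. *Plac8* (0.34 and 0.42) and *Cd38* (0.37 and 0.52) showed small gaps of like size. *Ighm*, the IgM heavy chain, was not higher in the gate, with log2 ratios of -0.12 and -0.03.

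*S1pr3* was found in the PEP-WT gate and not in the PEP-619WW gate. It had 51 UMIs in the PEP-WT gate, or 16.5 CPM, from 42 of the 874 barcodes, and 1.87 CPM outside. In the PEP-619WW gate it had 0 of 763545 UMIs and 0 of 174 barcodes, which allows up to 3.93 CPM or 1.72% of barcodes at a floor of 3 UMIs or barcodes. The exact 95% intervals reach 4.83 CPM and 2.10%, and both shares limit barcodes with a UMI and not cells that make the transcript. Outside the PEP-619WW gate it had 7 UMIs, or 1.19 CPM (0.479 to 2.45), which is below that floor, so whether the gate lay above or below the other barcodes was not detectable at this depth. Set at the floor of 3 UMIs, the level in the PEP-619WW gate would be 4.19-fold lower than in PEP-WT. The exact limit of 4.83 CPM gives a smaller fold. That fold depends on the mix of scores. Members with a score of 4 or more, which held 44 of the 51 UMIs, made up 30.9% of the PEP-WT gate and 20.1% of the PEP-619WW gate. Among these members alone PEP-WT had 37.8 CPM (27.4 to 50.7). The PEP-619WW floor there was 17.1 CPM, or 2.21-fold lower, and its exact limit 21.0 CPM. The gene is sparse: at 1000 UMIs it was seen in 3 of 871 PEP-WT members (0.344%), against 0.226% of the other barcodes, so its gap cannot be read at that depth. *Asb2* had 28 UMIs (9.05 CPM) in the PEP-WT gate and 1 UMI (1.31 CPM) in the PEP-619WW gate.

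The follicular genes leaned the other way but did not separate fully. Of 10 tested, 7 were lower in the gate in both libraries and 0 were called, with median log2 ratios of -0.43 and -0.29. Averaged over the libraries the median was -0.37, but 0.99 against all other *Cd79a* barcodes, the excluded ones among them. *Klf2*, a transcription factor of resting and recirculating lymphocytes, had 365 against 772 CPM in PEP-WT (log2 ratio -1.08, -1.17 to -0.99) and 520 against 723 CPM in PEP-619WW (-0.48, -0.63 to -0.33). *S1pr4*, another sphingosine phosphate receptor, had log2 ratios of -0.88 and -0.64. *Fcer2a*, whose protein is low on marginal zone B cells, was as high in the gate as outside, with 91.1 against 92.3 CPM in PEP-WT and 53.7 against 51.4 CPM in PEP-619WW. In PEP-WT members that entered through *Cr2* alone it had 130 CPM (109 to 153), against 70.7 (59.6 to 83.3) in the rest. In PEP-619WW these levels were 86.9 (49.7 to 141) and 43.1 CPM (27.9 to 63.7). By the same split *Marcks* had 94.2 and 110 CPM in PEP-WT, and 16.3 (3 UMIs) and 81.1 CPM in PEP-619WW. *Cd1d1* had 65.3 and 68.2 CPM in PEP-WT, and 32.6 (6 UMIs) and 56.9 CPM in PEP-619WW.

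**Figure D2:**
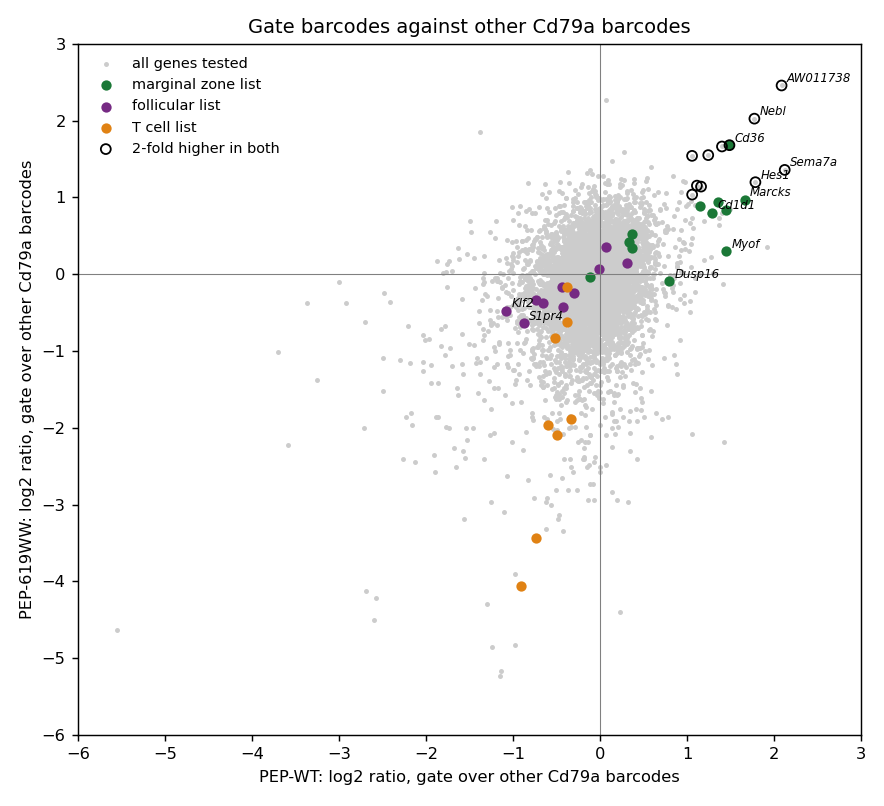
Log2 ratio of CPM in gate over other *Cd79a* barcodes for each gene tested, in PEP-WT (x axis) and PEP-619WW (y axis). The 11 circled genes are at least 2-fold higher in both libraries, and the marginal zone list (green) lies mostly above and to the right of the follicular list (purple), with *Ighm* near the center at -0.12 and -0.03 and the T cell list (orange) low on the y axis.

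Several marginal zone and follicular genes followed the score, which the totals over the gate do not show. In PEP-WT, *Marcks* had 30.8, 39.1, 68.8, 92.0 and 150 CPM in barcodes with a score of 0, 1, 2, 3 and 4 or more. *Cd1d1* had 27.7, 27.6, 40.5, 64.7 and 97.0 CPM in the same order. *Ighd*, the IgD heavy chain that is high on follicular B cells, went down, with 911, 885, 860, 698 and 619 CPM. *S1pr3* differed from this even course. It had 1.37, 3.15, 2.43, 5.75 and 37.8 CPM in PEP-WT. Of its 51 UMIs in that gate, 44 came from the 270 barcodes with the highest score. In PEP-619WW it had 1 UMI at a score of 0, 6 UMIs at 1 (4.74 CPM, 1.74 to 10.3) and 0 UMIs at 2 and above. *Fcer2a* took no even course either, with 87.7, 104, 115, 94.9 and 63.5 CPM in PEP-WT and 49.4, 58.5, 41.1, 73.2 and 68.3 CPM in PEP-619WW.

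In PEP-619WW, barcodes with a score of 2 had 29.7 CPM of *Marcks* (15.8 to 50.8, 13 UMIs), against 68.8 (55.0 to 85.1) in PEP-WT. They had 31.99 CPM of *Cd1d1* (17.5 to 53.7, 14 UMIs), against 40.5 (30.1 to 53.4), and these intervals overlapped. At a score of 0 the PEP-619WW levels were 32.1 and 29.1 CPM, inside the PEP-619WW intervals at a score of 2. By these 2 genes, PEP-619WW members with a score of 2 were not told apart from barcodes with a score of 0. *Tm6sf1* was higher at a score of 2, at 66.3 CPM (44.4 to 95.2) against 38.2 (32.7 to 44.2). The marginal zone label is therefore uncertain for these members. At a score of 3 the libraries were close, with 99.9 CPM of *Marcks* in PEP-619WW against 92.0 in PEP-WT, and 66.6 CPM of *Cd1d1* against 64.7. With 4 or more, the 35 barcodes had 125 CPM of *Marcks* (22 UMIs) and 85.4 CPM of *Cd1d1* (15 UMIs), and these intervals overlapped those of PEP-WT. A difference in course between the libraries was not tested. *Ighd* had 851 CPM at a score of 0 and 529 CPM at 4 or more. A score of exactly 2 made up 62.1% of the PEP-619WW gate and 46.6% of the PEP-WT gate, so the 2 gates did not hold the same mix.

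**Figure D3:**
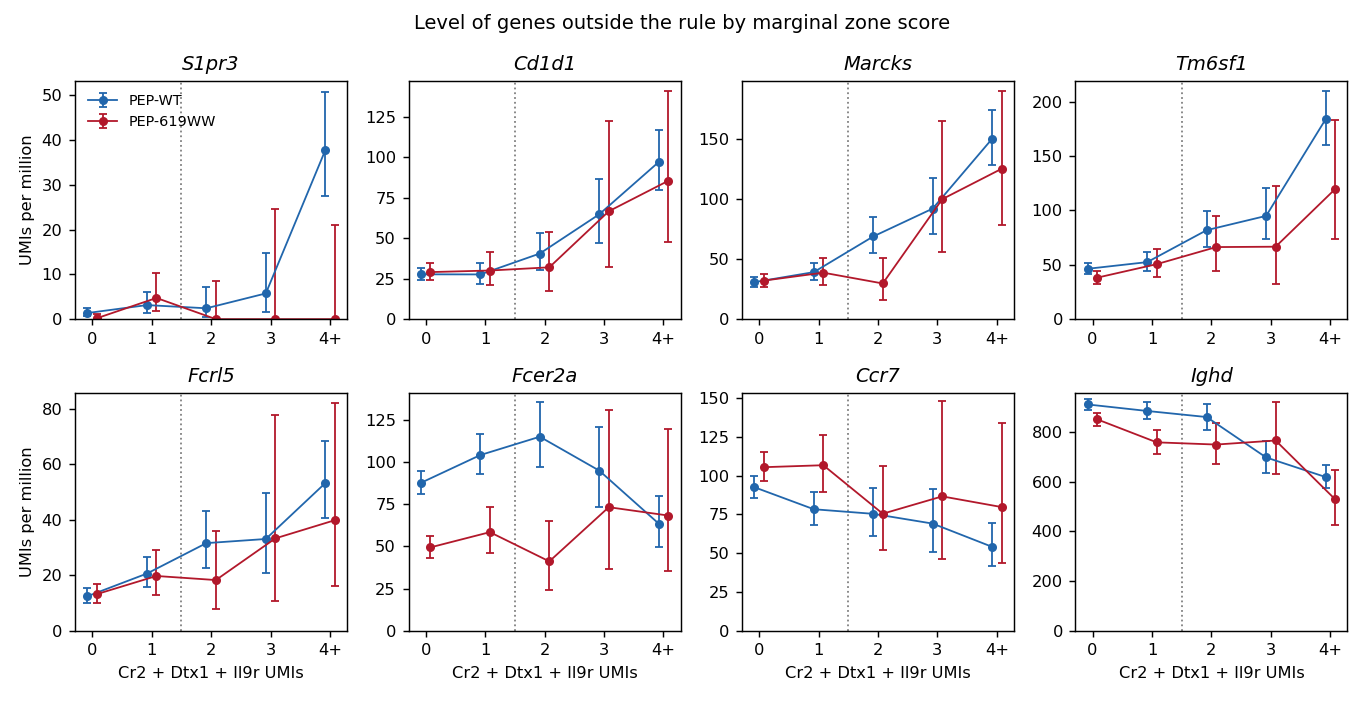
Level of 8 genes outside the rule (y axis, UMIs per 1000000) by the summed UMIs of *Cr2*, *Dtx1* and *Il9r* (x axis), in *Cd79a* barcodes that passed the exclusions, with 95% Poisson intervals, and with the gate to the right of the dotted line. *Marcks* in PEP-WT goes from 30.8 to 150 CPM and *Ighd* from 911 to 619 CPM, while *S1pr3* in PEP-619WW is at 0 UMIs at scores of 2 and above.

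Of the 11 genes called higher in the gate in both libraries, 9 were in no list. The highest was the noncoding *AW011738*, with 124 and 96 UMIs inside and outside the PEP-WT gate, or 40.1 against 9.45 CPM, and 19.6 against 3.57 CPM in PEP-619WW (15 and 21 UMIs). *Nebl*, a nebulin family gene, had log2 ratios of 1.77 and 2.03. *Sema7a*, a membrane-anchored semaphorin, had 2.12 and 1.36, the latter from 5 gate UMIs with an interval (-0.45 to 2.89) that included 0. *Pde4a*, a phosphodiesterase that breaks down cyclic AMP, had 1.40 and 1.66. *Cfp*, which encodes the complement activator properdin, had 1.24 and 1.55, *Cdh17*, a cadherin, had 1.05 and 1.54, and *Ffar2*, a receptor for short-chain fatty acids, had 1.11 and 1.15. *Pik3r4* and *Gm4610* had ratios between 1.04 and 1.16. In PEP-WT alone 45 genes were at least 2-fold higher, and 38 of these 45 were also higher in the PEP-619WW gate (84.4%, against 43.4% of all genes tested). In PEP-619WW alone 79 genes were at least 2-fold higher.

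The Notch pathway was represented by 27 genes beside *Dtx1*, and 20 were tested. One was called, *Hes1*, a transcriptional target of Notch. It had 83.7 against 24.3 CPM in PEP-WT (log2 ratio 1.78, 1.53 to 2.04) and 22.3 against 9.70 CPM in PEP-619WW (1.20, 0.32 to 2.00). *Hes5*, another target, had 26 UMIs in the PEP-WT gate (8.40 against 2.76 CPM) and 1 UMI in the PEP-619WW gate. The receptor *Notch2* differed little, with log2 ratios of -0.08 and -0.17. *Adam10*, the protease that cleaves it, had -0.25 and 0.04, and the DNA-binding partner *Rbpj* had -0.36 and -0.48. *Taok3*, a kinase needed for marginal zone fate, had 0.33 and 0.22. The list median was -0.03 in PEP-WT and 0.01 in PEP-619WW.

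Of 20 genes for migration and adhesion, 18 were tested and 0 were called in both libraries. *Ccr6*, a chemokine receptor, had 70.1 against 39.4 CPM in PEP-WT and 57.6 against 23.8 CPM in PEP-619WW, with log2 ratios of 0.83 (0.59 to 1.07) and 1.27 (0.75 to 1.77). *Cnr2*, the cannabinoid receptor 2, had 0.55 and 0.32, and *Gpr183*, an oxysterol receptor, 0.49 and 0.13. *Cxcr4* was lower in the gate, at 85.6 against 176 CPM in PEP-WT and 210 against 302 CPM in PEP-619WW. *S1pr1* differed little, with log2 ratios of 0.10 and -0.07. Among innate sensors, *Cd180* had log2 ratios of 0.58 and 0.37, *Tlr3* had 1.14 and 0.89 from 33 and 6 UMIs, and none of the 16 tested was called.

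The genes called lower in the gate, 73 of 8923, included genes of other cell types that the comparison barcodes held. Of 7 erythroid genes 5 were called lower, among them *Hbb-bs*, *Hbb-bt*, *Hba-a1* and *Hba-a2*, with log2 ratios from -1.30 to -1.14 in PEP-WT and from -5.23 to -4.30 in PEP-619WW. *Prss34* and *Mcpt8*, basophil proteases, were lower too, with 1 and 0 UMIs in the PEP-WT gate and 0 of both in the PEP-619WW gate, against 154 and 59 UMIs outside in PEP-WT and 573 and 430 in PEP-619WW. *Ctsg*, a granule protease, *Ifitm1*, *Cldn13* and *Hmgb3* complete the 10 with the lowest ratios. The 8 T cell genes tested were all negative in both libraries and none was called. All 9 T cell list genes summed to 120 against 172 CPM in PEP-WT and 55.0 against 176 CPM in PEP-619WW. *Jchain* and *Ighg2c*, from antibody secreting cells, were called lower, *Jchain* at -1.22 and -1.21. The part of these other cells in the comparison was not tested beyond leaving out hemoglobin-rich barcodes, which left 47 genes lower. The UMI minimum per gene was asked of gate and other barcodes together. The other barcodes held more UMIs, 10160744 in PEP-WT and 5878615 in PEP-619WW, against 3095201 and 763545 in the gates. *Mcpt8*, with 0 gate UMIs, passed through the other barcodes alone. The filter therefore bears on the balance of 11 higher and 73 lower genes. With 1 UMI asked per gene and group instead, 47 were higher and 122 lower.

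The genotypes were then compared within the gate, on 4355 genes with at least 100 UMIs. Of these, 0.689% (30 genes) were at least 2-fold higher and 0.85% (37 genes) at least 2-fold lower in PEP-619WW. The PEP-WT gate held 3095201 UMIs and the PEP-619WW gate 763545, so the 100 UMIs came mostly from PEP-WT. *Gzma*, with 137 and 1 UMIs, passed through PEP-WT alone. The filter therefore bears on the balance of higher and lower genes. In the other *Cd79a* barcodes, with 6190 barcodes in all, 7 and 12 of the same 4355 genes passed this limit. These barcodes held 10160744 UMIs in PEP-WT and 5878615 in PEP-619WW, so counting error was smaller there. The numbers of genes past the limit inside and outside the gate are therefore not comparable. Both comparisons share the same libraries. Of the called genes, 11 of the 30 and 15 of the 37 differed at least 1.5-fold the same way outside, where 50 and 57 of all 4355 genes were that much higher and lower, and 1 of each had the opposite sign there. All comparisons below rest on 1 library per genotype.

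*Ptpn22* itself had 64.3 CPM in the PEP-WT gate (199 UMIs) and 111 CPM in the PEP-619WW gate (85 UMIs), a log2 ratio of 0.79 (0.41 to 1.17). The ratio outside the gate was 0.75. The mutation changes a codon and not the 3' end that the assay reads, so these counts do not check the genotype labels. Of the 26 B cell receptor signaling genes tested 0 were called, with a median log2 ratio of 0.09. The kinase *Syk* had 208 and 288 CPM (log2 ratio 0.47, 0.24 to 0.69), while *Lyn* (0.08), *Btk* (0.30), *Blnk* (-0.10) and *Csk*, which encodes a partner of PEP (0.02), had intervals that included 0.

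Most interferon-stimulated genes had negative ratios in the gate, and few were called. The rule limited the 3 *Ifit* genes in both libraries, and 38 other genes of the list were tested. Of these, 31 had a negative log2 ratio and 5 were called lower, with a median of -0.40. Over all 4355 genes 1992 were negative, 0.85% were called lower and the median was 0.04. *Isg15*, a ubiquitin-like modifier, had 192 CPM in PEP-WT (593 UMIs) and 43.2 CPM in PEP-619WW (33 UMIs), a log2 ratio of -2.15 (-2.70 to -1.64). *Oas3*, an oligoadenylate synthetase, had 46.5 and 13.1 CPM, a log2 ratio of -1.83 (-2.92 to -0.91). *Oas2* (-1.10), *Dhx58* (-1.43) and *Irf7* (-1.002), a transcription factor of the interferon response, were the others. *Zbp1*, a nucleic acid sensor, had -0.79 (-1.08 to -0.51). *Gbp2*, a guanylate-binding protein, was higher, with 0.51 (0.17 to 0.84). Outside the gate the median of the same 38 genes was -0.62, lower than in the gate.

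The Notch target *Hes1* was also lower. It was at 83.7 CPM in the PEP-WT gate, with UMIs in 187 of 874 barcodes, and at 22.3 CPM in the PEP-619WW gate, with UMIs in 14 of 174. Its log2 ratio was -1.91 (-2.71 to -1.20), and -1.33 outside the gate. The other 10 Notch genes tested were not called, 9 with a positive ratio, *Notch2* at 0.27 (-0.13 to 0.66). *Pxdc1* was lower too, at 92.4 and 28.8 CPM and a log2 ratio of -1.68 (-2.38 to -1.05). T cell-like barcodes differed the same way, with 7.73 and 2.996 CPM of *Hes1*, a log2 ratio of -1.37, and with -1.62 for *Pxdc1* and -1.29 for *Isg15*. Of the genes called in the gate, 10 of the 37 lower and 0 of the 30 higher were at least 2-fold the same way in T cell-like barcodes, where 40 and 3 of all 4355 genes passed this limit. The part of free RNA or of differences across the whole library was not tested.

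Among the marginal zone genes, 10 were tested between genotypes and 0 were called. *Marcks* had a log2 ratio of -0.68 (-1.14 to -0.24), *Tm6sf1*, a multipass membrane protein gene, -0.65 (-1.07 to -0.25) and *Myof* -0.92 (-1.92 to -0.05). These sizes are below the 2-fold limit. *Cd1d1* (-0.40), *Fcrl5* (-0.61), *Cd9* (0.04), *Cd36* (0.00) and *Cd38* (0.03) had intervals that included 0. *Ighm* was higher in PEP-619WW, at 2765 and 3551 CPM and a log2 ratio of 0.36 (0.30 to 0.42), and 0.28 outside the gate. Of 10 follicular genes 0 were called and 6 were higher, among them *Klf2* at 365 and 520 CPM (0.51, 0.34 to 0.68), *S1pr4* at 42.3 and 65.5 CPM (0.63, 0.13 to 1.11), and *Bach2*, a repressor of plasma cell fate, at 91.8 and 136 CPM (0.57, 0.23 to 0.90). For *Klf2* outside the gate the levels were 772 and 723 CPM, and at 1000 UMIs its ratio in the gate was -0.02. *Fcer2a* was lower in PEP-619WW in the gate, at -0.76 (-1.27 to -0.29). The gates differed in their mix of scores, as given above. With a score of at least 3 the log2 ratio of *Marcks* was -0.18, that of *Fcer2a* -0.09 and that of *Cd1d1* -0.15. *Tm6sf1* stayed at -0.66. *Myof* went to -1.25, with 2 PEP-619WW UMIs at a score of 3 and 3 at 4 or more. *Klf2* had 0.89, *S1pr4* 0.40, *Bach2* 0.29 and *Ighm* 0.30.

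**Figure D4:**
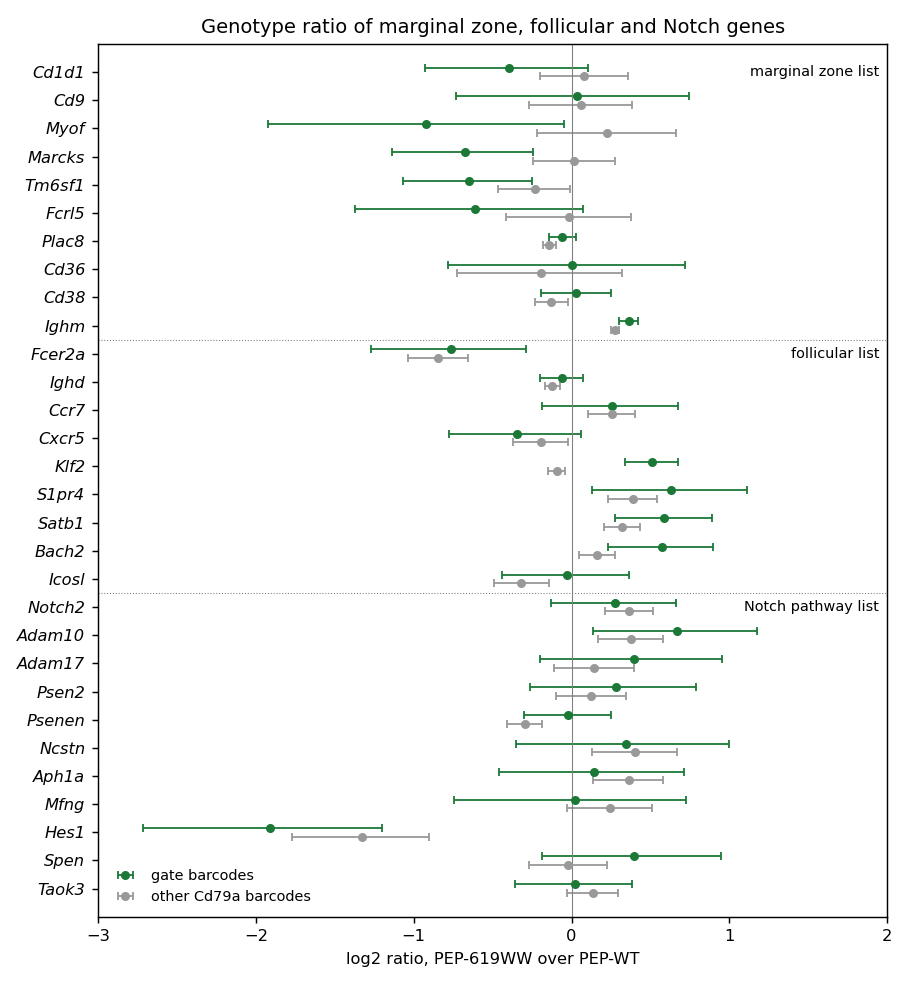
Log2 ratio of PEP-619WW over PEP-WT (x axis) for marginal zone, follicular and Notch genes tested in the gate (y axis), with points for the ratio of summed UMIs and bars for the 95% interval of counting error, in gate (green) and other *Cd79a* barcodes (grey). *Hes1* has the lowest ratio, -1.91 in the gate, and *Klf2*, *S1pr4* and *Bach2* lie above 0 in the gate.

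The 10 genes with the highest genotype ratios were led by *Abca1*, a cholesterol exporter, at 41.0 and 122 CPM, a log2 ratio of 1.57 (1.17 to 1.97). Its UMIs came from 109 PEP-WT and 60 PEP-619WW gate barcodes. *Cxcr4*, the receptor for CXCL12, had 85.6 and 210 CPM, a log2 ratio of 1.29 (1.00 to 1.58), and 0.78 outside the gate. *Btla*, an inhibitory receptor of lymphocytes, had 123 and 282 CPM (1.20, 0.95 to 1.44), and *Pik3ip1*, an inhibitor of PI3 kinase, 39.7 and 94.3 CPM (1.25, 0.81 to 1.68). *Mlxip*, *Arhgef18*, *St3gal1*, *Rassf4* and *Ppp1r21* had ratios between 1.24 and 1.38. *Ighg2c*, an IgG heavy chain, had 285 and 740 CPM. A single PEP-619WW barcode held 142 of its 565 UMIs. T cell-like barcodes had 7002 and 10271 CPM. They were not put through the exclusions and also had 933 and 1404 CPM of *Mzb1*. The source of these UMIs was not tested.

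**Figure D5:**
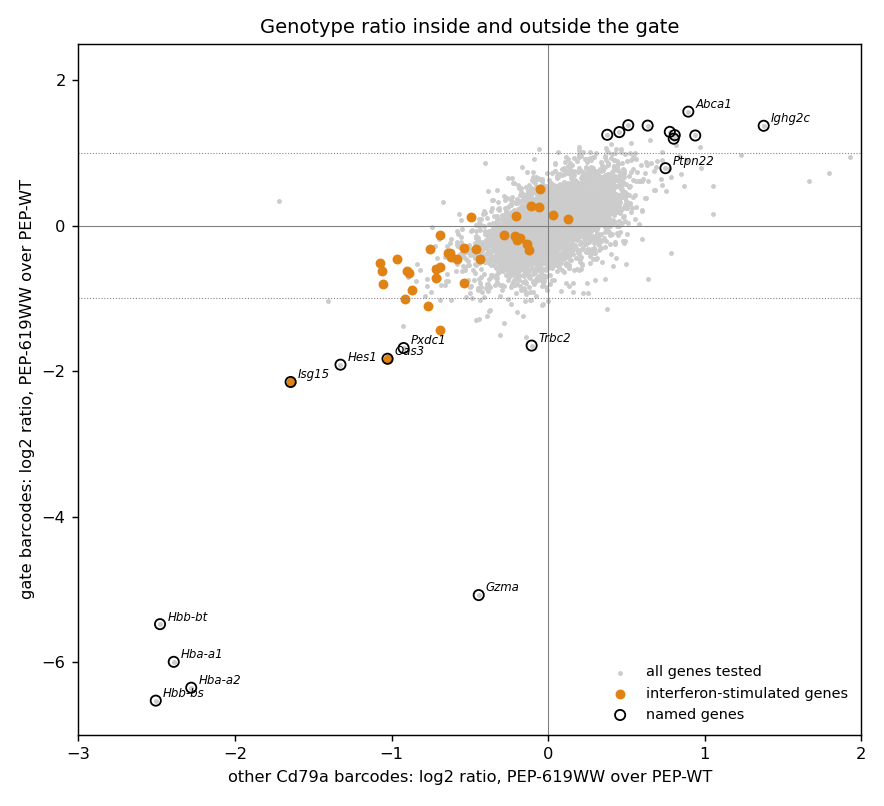
Log2 ratio of PEP-619WW over PEP-WT for each of 4355 genes in gate barcodes (y axis) and other *Cd79a* barcodes (x axis), with interferon-stimulated genes in orange, named genes circled and dotted lines at the 2-fold limit. *Isg15*, *Hes1* and *Oas3* are low on both axes, hemoglobin genes lie at the bottom left, and *Gzma* lies at -5.08 in the gate and -0.44 in the other barcodes.

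The lowest ratios belonged to genes of other cells. Hemoglobin *Hbb-bs* had 2784 CPM in the PEP-WT gate and 30.1 CPM in the PEP-619WW gate, a log2 ratio of -6.53 (-7.19 to -5.94), and 1 PEP-WT barcode held 1557 of its 8618 UMIs. *Hba-a1*, *Hba-a2* and *Hbb-bt* had -6.00, -6.35 and -5.48. At least 20 hemoglobin UMIs were found in 12 PEP-WT and 0 PEP-619WW members. The 7 erythroid genes summed to 4473 and 70.7 CPM in the gate, and to 10199 and 1894 CPM in other *Cd79a* barcodes. Without the barcodes rich in hemoglobin the *Hbb-bs* ratio was -2.56 and the share difference was -6.20 percentage points.

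*Gzma*, a granzyme of cytotoxic cells, had 137 UMIs in PEP-WT, 59 of them in 1 barcode and all of them in 13, against 1 UMI in PEP-619WW, a log2 ratio of -5.08 (-10.4 to -2.58). *Trbc2*, a T cell receptor constant gene, had 127 UMIs in 45 PEP-WT barcodes and 10 UMIs in 5 PEP-619WW barcodes. A UMI of at least 1 of 5 T cell genes, *Cd3d*, *Cd3g*, *Trac*, *Trbc1* and *Trbc2*, occurred in 9.50% of PEP-WT members (7.63 to 11.6) and 9.77% of PEP-619WW members (5.80 to 15.2). The 9 T cell list genes summed to 120 CPM in PEP-WT and 55.0 CPM in PEP-619WW, and the 9 myeloid genes to 382 and 365 CPM. Their part in the other genotype ratios was not tested.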

How the data were processed

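The deposited tables hold UMI counts that the authors made with Cell Ranger on an mm10 reference. The submitters' processing notes give version 6.0.0, and the study's methods name another. These deposited raw counts cover 32285 genes, of which 32158 identifiers matched a symbol. Coordinates are from GENCODE vM21 (GRCm38). Of 2 runs per genotype, the first was used for all values, and the second, whose barcode numbers are those in the study's methods, as an alternative. UMIs were summed over barcodes, scaled to 1000000 (CPM) and compared as ratios with exact conditional binomial intervals. Genes needed 100 UMIs. A sum of 0 entered as 3 UMIs where this gave a bound. Genes of the rule were left out of all calls. Named genes were up to 15 highest (11 were called) and the 10 lowest among those called for the gate, 10 each way for the genotype, genes of the marginal zone, follicular, Notch and positioning lists, and *Ptpn22*; other genes named were picked after their values were seen, and immunoglobulin variable genes were counted apart, with 0 called. Values of some single genes are not reported here, though the genes stay in the counts and medians of their lists. No doublet caller was run. Barcodes above the 95th percentile of UMIs were left out as an alternative instead. The members and the 22 gene lists were chosen with earlier results of these data known. Calculations were tested on simulated data. Versions were 3.11.15 for python, 2.4.6 for numpy, 1.17.1 for scipy and 3.10.9 for matplotlib.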

Additional observations from a re-analysis of the deposited data

Results flagged for a closer look

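Several genes had ratios of opposite sign where the same contrast was read in different cells or libraries, each with a counting interval that did not include 0, and for all of them the difference was not tested. *Trps1*, a GATA-type repressor, had a log2 ratio of PEP-619WW over PEP-WT of -1.15 in the gate and 0.37 in other *Cd79a* barcodes. The ratio of gate over other barcodes was of opposite sign between the libraries, and at least 2-fold in 1 of them or both, for the genes that follow. *Esco2*, a cohesin acetyltransferase of dividing cells, had 1.85 in PEP-619WW and -1.38 in PEP-WT. *Cenpc1*, a centromere protein gene, had 1.05 and -0.67, and *Anxa2*, an annexin, had 0.71 and -1.003. *1810043G02Rik* had -2.08 and 1.05.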

How the results depend on the processing

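Alternatives were chosen with earlier results of these data known, and leaving out hemoglobin-rich barcodes was added after seeing the data. The share difference among *Cd79a* barcodes, -6.15 percentage points as reported, was -3.77 at 1000 UMIs, -10.6 with a score of at least 1, -3.84 with at least 3, -4.28 with *Dtx1* or *Il9r* only, -12.2 without exclusions and -9.39 among barcodes passing them. Among all barcodes these settings gave -1.93, -6.84, -2.38, -2.84 and -7.69. The second run, which has the barcode numbers of the study's methods but 10 PEP-WT *Cd79a* barcodes, reversed the sign, to 3.65 and 0.263. With 0 PEP-WT members there, neither difference could be negative, so this reversal carries no information. The interval of the 3.65 was -24.1 to 5.19. Genes higher and lower in the gate, 11 and 73, moved to 31 higher with a score of at least 3, 27 lower at 1000 UMIs, 47 lower without hemoglobin-rich barcodes, 117 lower at 50 UMIs, 47 and 122 at 1 UMI per gene and group, 55 and 224 at 1.5-fold, and 260 and 923 against all other *Cd79a* barcodes. Genotype calls, 30 and 37, became 11 higher at 1000 UMIs, 106 and 106 at 50 UMIs, 766 and 495 at 1 UMI, and 295 and 226 at 1.5-fold. The median log2 ratio of the marginal zone genes, averaged over the libraries, was 0.94 as reported, 0.60 at 1000 UMIs, 0.76 against all other *Cd79a* barcodes and 1.16 with a score of at least 3, and that of the follicular genes, -0.37 as reported, was 0.99 against all other *Cd79a* barcodes. *Cldn13* turned to 0.30 at 1000 UMIs and *Cfp* to -0.11 against all other *Cd79a* barcodes. The cause of these changes was not tested, apart from looser limits letting in more genes. Of the named genes' ratios under these settings, 12 for the gate and 13 for the genotype moved beyond their counting interval with the same sign, and 149 and 127 did not. For further genes of the marginal zone, follicular, Notch and positioning lists and *Ptpn22*, 34 and 23 ratios moved, some with a change of sign but none of a called gene, and 390 and 271 did not. Of the list medians under these settings 45 moved and 241 did not. *Trbc2* became -0.46 with a score of at least 3, and *Gzma* -2.38 at 1000 UMIs. Gene values in the second run were not run, as its gates held fewer than 50 barcodes. No paired analysis was possible because each genotype is 1 pooled library.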

Other observations

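Light chain use was read per barcode from the constant region genes. Lambda UMIs (*Iglc1*, *Iglc2* and *Iglc3*) outnumbered *Igkc* UMIs in 68 of 874 PEP-WT members, or 7.78% (6.09 to 9.76), and in 435 of 4171 other *Cd79a* barcodes, or 10.4% (9.52 to 11.4). In PEP-619WW these were 18 of 174 members, or 10.3% (6.25 to 15.9), and 140 of 2019 others, or 6.93% (5.86 to 8.13). By this measure the order of gate and other barcodes was opposite in the 2 libraries. The intervals overlapped within each, but overlap does not test a difference, and none was tested. As a share of all light chain UMIs, lambda was higher in the gate in both, at 29.2% against 26.1% in PEP-WT and 29.9% against 22.1% in PEP-619WW. The ratio of *Ighd* to *Ighm* UMIs was lower in the gate, at 0.265 against 0.301 in PEP-WT and 0.198 against 0.229 in PEP-619WW.

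Class II genes of antigen presentation differed little in the gate: of 11 tested 0 were called between genotypes, with a median log2 ratio of -0.05. Of 18 activation and immediate early genes 13 had a negative ratio and 0 were called, with a median of -0.28, and -0.28 outside the gate. *Fosb* had -0.97 (-1.43 to -0.54) and *Myc* -0.73 (-1.16 to -0.32). The 12 cell cycle genes tested against other *Cd79a* barcodes had median log2 ratios of -0.69 in PEP-WT and -0.34 in PEP-619WW, and none was called.

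The remaining lists held few called genes against other *Cd79a* barcodes. *Myb* was the 1 called lower of 5 transitional genes tested. Of 4 B-1 genes, 2 germinal center genes, 6 survival genes, 5 genes of PEP and its partners and 7 B cell identity genes tested, 0 were called. *Jchain* was the 1 called of 9 genes of antibody secreting cells and *Ighg2c* the 1 called of 11 immunoglobulin constant genes. Of the 43 interferon-stimulated genes 0 were called, with medians of -0.08 in PEP-WT and 0.06 in PEP-619WW, and none of the follicular dendritic genes had enough UMIs. Between genotypes in the gate, 0 of 6 survival genes and 0 of 9 Toll-like receptor genes were called.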
